A study of Mus musculus with 6 samples.

Results

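The matrix of white fat was followed through 10 genes for secreted glycoproteins and proteoglycans, namely *Tnxb*, *Ccn5*, *Fn1*, *Fbn1*, *Eln*, *Dcn*, *Lum*, *Bgn*, *Sparc* and *Mfap5*. They are non-collagen matrix genes picked by name and grouped with *Tnxb* and *Ccn5* (also called *Wisp2*), which were already known to be among the largest falls in these samples. They make up 10 of the 46517 Ensembl mouse genes counted. All 10 were among the 14967 genes kept for testing, which had 1 cpm (read counts-per-million) or more in some sample before scaling. Elsewhere cpm is that of the scaled library. Because the choice used the same contrast, the values of the 10 genes are given as a description, with no p-value, and counts of calls among them say where each stood in the fit over all genes and are not evidence for the set.

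RNA was sequenced from inguinal subcutaneous white adipose tissue (IngWAT) of floxed mice, whose *Hdac3* alleles can be cut out by Cre, and of H3atKO mice, which carry these alleles together with the Adipoq-cre transgene. HDAC3 is a histone deacetylase that works in corepressor complexes, and the adiponectin promoter drives Cre in adipocytes, so the other cells of the tissue keep the gene. Per the labels, both genotypes were on the C57Bl6 strain, 5 to 9 months old and fed chow, and the study's methods describe male animals. Each genotype had 3 libraries, and each library was made from 500 ng of RNA pooled from 2 or 3 mice, so p-values measure the spread between these pools.

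The matrix of adipose tissue is a mesh of collagen fibres, elastic fibres and basement membrane that wraps each adipocyte and has to give way as the cell grows. Fibrillin microfibrils are the scaffold on which elastin is laid down and also hold latent TGF-beta, whereas small leucine-rich proteoglycans sit on collagen fibrils and govern their thickness and spacing. Fibroblasts, preadipocytes and mural cells make much of this material, and adipocytes add to it. In bulk tissue, fewer cells of a type and less RNA per cell cannot be told apart.

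The labels were first checked on the targeted gene. *Hdac3* measured 68.8, 80.2 and 65.8 cpm in floxed replicates 1 to 3 and 27.4, 21.1 and 12.9 cpm in H3atKO replicates 1 to 3. Every H3atKO pool was below every floxed pool, with a log2 fold change of -1.83 (SE 0.32, adjusted p = 0.0214 from limma over all genes tested). Counts on genes ranged from 23865507 to 35200685 per library, and 3 counts equalled 0.0658 to 0.190 cpm, a limit set by counting error alone. Transcripts of the mitochondrial genome took 6.92% to 12.9% of the counts in floxed and 26.9% to 35.3% in H3atKO pools. The 8 adipocyte markers read below were present in every pool, and *Adipoq*, which encodes adiponectin, measured 1913 to 2644 cpm in floxed and 1265 to 2874 cpm in H3atKO pools. Presence does not mean an equal level, as the median log2 fold change of the 8 markers was -1.53. None of the 8 was called by limma.

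In H3atKO IngWAT the log2 fold change was below 0 for 10 of the 10 matrix genes, and 7 of them (*Tnxb*, *Ccn5*, *Fn1*, *Eln*, *Bgn*, *Sparc* and *Mfap5*) were called lower by limma at an adjusted p under 0.05. Of all genes tested, 7.07% were called lower, and since the genes were chosen on this contrast nothing is read from the gap between these shares. None was called higher. The median log2 fold change was -2.15 over the 10 genes and -0.09 over all genes tested. Every H3atKO pool lay below every floxed pool for 8 of the 10, the exceptions being *Dcn* and *Lum*, and 28.6% of all genes tested had this pattern. With the replicate number as a block 8 genes were called lower (28.7% of all genes) and 0 higher (24.8% of all genes), *Fbn1* being the addition. edgeR's quasi-likelihood test called the same 8 lower, beside 18.4% of all genes. The count without 1 library was 3 without floxed replicate 1, 0 without floxed replicate 2 and 8 without floxed replicate 3. It was 1 without H3atKO replicate 1, 4 without H3atKO replicate 2 and 1 without H3atKO replicate 3, and *Bgn* was the gene left in both fits with 1 call. Over all genes tested, 90 of 14736, 0 of 14860 and 3828 of 14759 were called lower without floxed replicates 1, 2 and 3. Without H3atKO replicates 1, 2 and 3 these counts were 47 of 14844, 139 of 14942 and 20 of 14907.

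**Figure D1:**
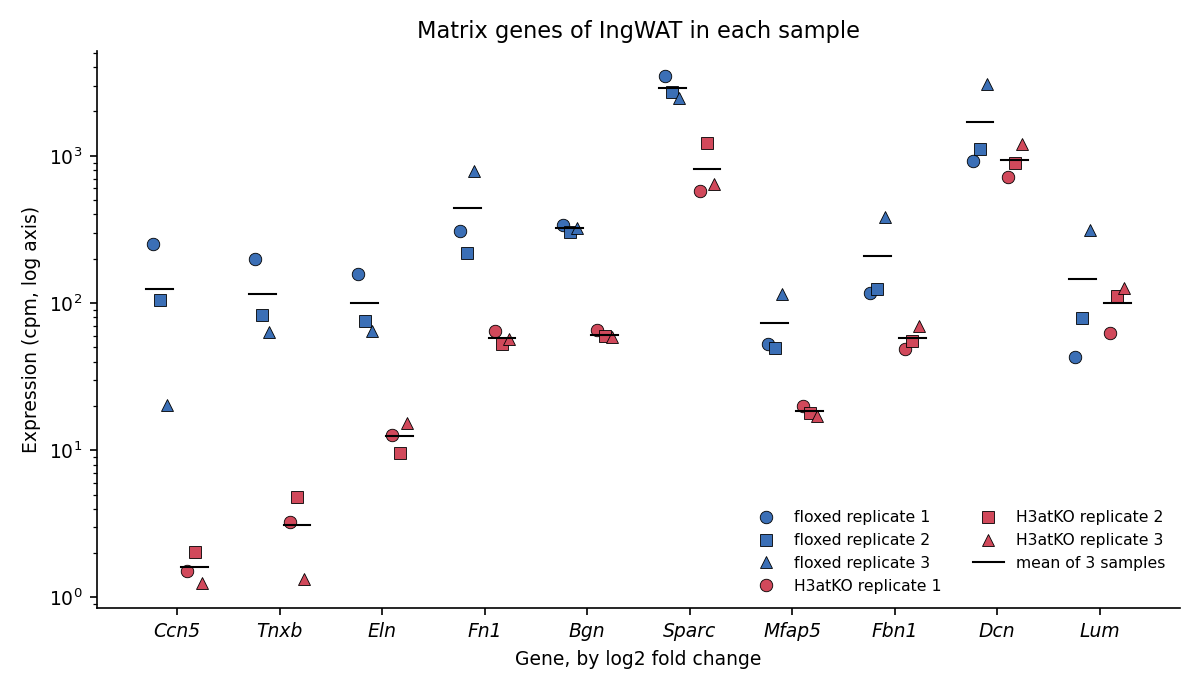
Expression of the 10 matrix genes in each pool, in cpm on a log axis, with genes ordered by log2 fold change, floxed pools in blue and H3atKO pools in red, marker shape for the replicate number and a bar for the mean of 3 samples. The genotypes are widest apart for *Ccn5* and *Tnxb*, *Bgn* has the tightest replicates (303.8 to 339.0 cpm in floxed pools), and the points of *Dcn* and *Lum* overlap between genotypes.

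*Tnxb* encodes tenascin-X, a large glycoprotein that binds collagen fibrils and spaces them, and it lies on chromosome 17 from 34670535 to 34719815 (GRCm38, ENSMUSG00000033327). It measured 199.9, 82.7 and 63.3 cpm in floxed replicates 1 to 3 and 3.25, 4.79 and 1.33 cpm in H3atKO replicates 1 to 3. The lowest floxed pool was far above the highest H3atKO pool. The means were 115.3 ± 73.9 and 3.12 ± 1.74 cpm (SD, n = 3), a 36.9-fold difference of means, and the log2 fold change was -5.15 (SE 0.71). *Tnxb* shares 3 exon bases with *Cyp21a2-ps* on the other strand, a pseudogene that received at most 73 counts in any library, so the overlap is small beside the signal.

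*Ccn5* encodes a matricellular protein of the CCN family that acts on WNT signalling in fat precursors, and it lies on chromosome 2 from 163820861 to 163833146 (ENSMUSG00000027656). It measured 250.5, 104.4 and 20.2 cpm in floxed and 1.52, 2.04 and 1.26 cpm in H3atKO pools. The H3atKO pools were close to each other, while the floxed pools differed 12.4-fold between the highest, replicate 1, and the lowest, replicate 3. The means were 125.0 ± 117 and 1.61 ± 0.394 cpm (SD, n = 3), 77.7-fold apart, and the log2 fold change of -5.65 had the largest standard error of the 10 (1.40). Over the 6 fits that left out a library it ran from -4.83 without floxed replicate 1 to -6.64 without floxed replicate 3.

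The regulatory DNA at the start of 2 of the genes is printed here so that a gene with a wide fall, *Tnxb*, can be set beside the gene with the tightest replicates, *Bgn*. RefSeq promoters for GRCm38.p6 were at hand for 4 of the 10 genes, and these are the 2 whose upstream window holds no annotated exon. Each line gives the 250 bases before the start site, 5′ to 3′ on the plus strand, at chr17:34670285-34670534 and chrX:73483351-73483600. Capitals mark matches on either strand to a searched motif.
Tnxb: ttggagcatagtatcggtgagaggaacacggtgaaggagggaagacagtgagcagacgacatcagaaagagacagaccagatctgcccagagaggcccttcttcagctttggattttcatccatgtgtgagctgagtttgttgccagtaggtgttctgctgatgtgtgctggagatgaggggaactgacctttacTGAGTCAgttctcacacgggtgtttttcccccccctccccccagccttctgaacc
Bgn: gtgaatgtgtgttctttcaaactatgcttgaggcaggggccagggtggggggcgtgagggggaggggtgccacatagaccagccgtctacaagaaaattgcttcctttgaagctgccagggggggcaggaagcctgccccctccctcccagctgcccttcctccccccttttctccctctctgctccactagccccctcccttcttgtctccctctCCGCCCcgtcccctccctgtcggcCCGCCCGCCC
The motifs searched were the TATA box (TATAAA), the CCAAT box (CCAAT), the GC box (GGGCGG), the AP-1 site (TGANTCA), a SMAD-binding element (GTCTAGAC) and a TEAD site (GGAATG). The *Tnxb* window held 1 AP-1 match, TGAGTCA, which 6.75% of 32851 promoters of the same length held. The *Bgn* window held 3 GC boxes, of which the last 2 overlap, and 32.7% of promoters held at least 1. The other motifs were absent from both windows and were found in 12.4% (TATA box), 33.8% (CCAAT box), 0.167% (SMAD-binding element) and 12.6% (TEAD site) of promoters. GC content was 52.4% in the *Tnxb* window and 64.4% in the *Bgn* window, beside a median of 52.4% over all promoters. These matches describe letters and say nothing of which factors bind.

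The genes of elastic fibres come next. *Eln* encodes tropoelastin, the rubber-like core of the fibre (chromosome 5 from 134702593 to 134747323, ENSMUSG00000029675). It measured 158.3, 75.7 and 64.5 cpm in floxed and 12.6, 9.58 and 15.3 cpm in H3atKO pools. The genotypes did not overlap, and floxed replicate 1 stood above the other floxed pools. The log2 fold change was -2.91 (SE 0.46).

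*Fbn1* encodes fibrillin-1, which assembles into the microfibrils around elastin (chromosome 2 from 125300594 to 125507993, ENSMUSG00000027204). It measured 117.3, 125.3 and 382.7 cpm in floxed and 49.1, 55.4 and 69.8 cpm in H3atKO pools. The pools did not overlap, but floxed replicate 3 was 3.26 times as high as replicate 1, the lowest floxed pool. The log2 fold change of -1.64 (SE 0.47) was not called by limma, and it was called by edgeR, by DESeq2 and with the replicate block. *Fbn1* shares 2442 exon bases with *Gm9913* on the opposite strand, which received 0 to 4 counts per library.

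*Mfap5* encodes a small glycoprotein (MAGP-2) that coats microfibrils (chromosome 6 from 122505845 to 122529290, ENSMUSG00000030116). It measured 52.7, 49.8 and 116.0 cpm in floxed and 20.1, 18.0 and 17.1 cpm in H3atKO pools. Again floxed replicate 3 was the highest, and the H3atKO pools lay close together below all floxed pools. Its log2 fold change was -1.86 (SE 0.41).

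The adhesive and matricellular genes also differed without overlap. *Fn1* encodes fibronectin, which links integrins of the cell to collagen (chromosome 1 from 71585520 to 71653200, ENSMUSG00000026193). It measured 307.6, 220.3 and 793.0 cpm in floxed and 64.7, 52.7 and 56.6 cpm in H3atKO pools. The H3atKO pools were nearly level with each other, whereas floxed replicate 3 was 3.60 times as high as replicate 2. The means were 440.3 ± 309 and 58.0 ± 6.12 cpm (SD, n = 3), and the log2 fold change was -2.71 (SE 0.46).

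*Sparc* encodes osteonectin, a collagen-binding matricellular protein that adipocytes secrete (chromosome 11 from 55394500 to 55423183, ENSMUSG00000018593). It measured 3479, 2714 and 2487 cpm in floxed and 572.9, 1226 and 645.1 cpm in H3atKO pools. The floxed pools were close to each other, and H3atKO replicate 2 was above the other H3atKO pools but below every floxed pool. Its log2 fold change was -1.90 (SE 0.35).

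The log2 fold changes of the 3 small leucine-rich proteoglycans ranged from -2.40 to -0.09, and from -1.91 to -0.98 with the GC correction described below, without a test of the differences between genes. *Bgn*, for biglycan, a proteoglycan that binds collagen and TGF-beta (chromosome X from 73483602 to 73495933, ENSMUSG00000031375), measured 339.0, 303.8 and 322.9 cpm in floxed and 65.1, 59.6 and 58.6 cpm in H3atKO pools. Replicates of a genotype were within 1.12-fold and 1.11-fold of each other, and the genotypes were 5.27-fold apart in the means. The log2 fold change was -2.40 (SE 0.21), the smallest standard error of the 10.

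*Dcn*, for decorin, the close relative of biglycan that caps collagen fibrils (chromosome 10 from 97479609 to 97518143, ENSMUSG00000019929), measured 924.7, 1107 and 3076 cpm in floxed and 718.4, 898.2 and 1207 cpm in H3atKO pools. H3atKO replicate 3 was above floxed replicates 1 and 2, so the genotypes overlapped. The log2 fold change was -0.67 (SE 0.47), and it was -0.13 without floxed replicate 3.

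*Lum*, for lumican, a keratan sulfate proteoglycan of collagen fibrils (chromosome 10 from 97565128 to 97572703, ENSMUSG00000036446), starts 47 kb beyond the end of *Dcn*. It measured 42.9, 79.2 and 312.0 cpm in floxed and 62.8, 111.3 and 126.3 cpm in H3atKO pools. Floxed replicate 3 was the highest pool and floxed replicate 1 the lowest, and the H3atKO pools fell between them. Its log2 fold change, -0.09 (SE 0.69), turned to 0.72 without floxed replicate 3 and to 0.21 without H3atKO replicate 1.

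**Figure D2:**
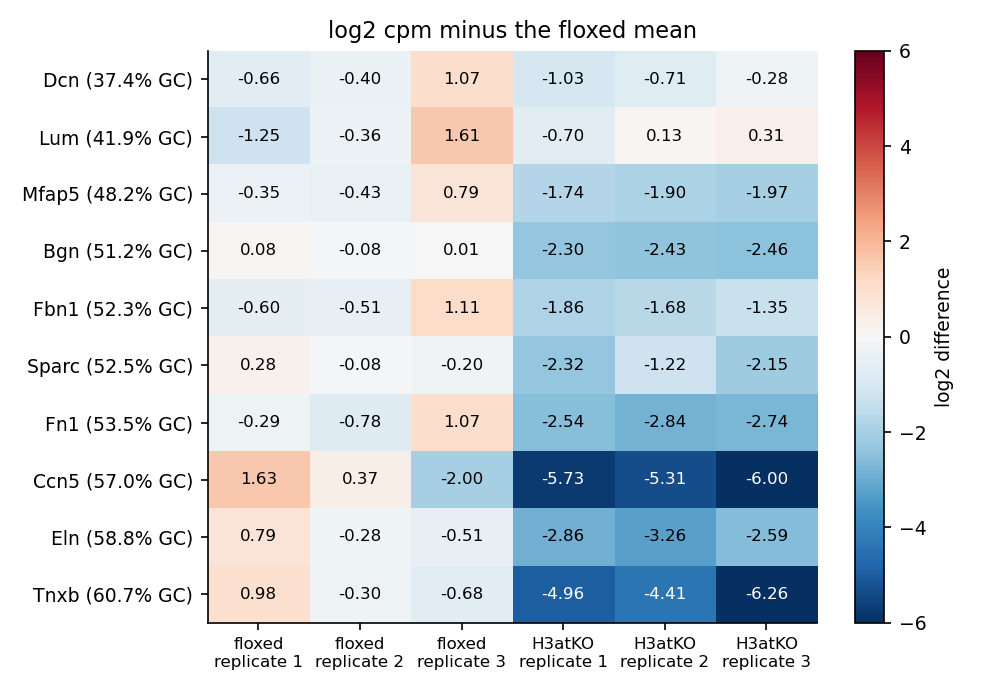
Difference of each pool from the floxed mean in log2 cpm for the 10 genes, ordered from the lowest (*Dcn*, 37.4%) to the highest GC content of the longest transcript (*Tnxb*, 60.7%), in red above and blue below the mean. Floxed replicate 3 is the highest floxed pool for *Dcn*, *Lum*, *Mfap5*, *Fbn1* and *Fn1*, with differences of 0.79 to 1.61, and *Ccn5* and *Tnxb* have the deepest blue in H3atKO pools, down to -6.26.

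The 10 genes were spread differently within the floxed group. Floxed replicate 1 was the highest for *Tnxb*, *Ccn5*, *Eln*, *Bgn* and *Sparc*, and floxed replicate 3 for *Fn1*, *Fbn1*, *Dcn*, *Lum* and *Mfap5*. The ratio of the highest to the lowest floxed pool ran from 1.12 for *Bgn* to 12.4 for *Ccn5*, with 7.28 for *Lum* next. Per exon length, the ratio of *Fbn1* to *Dcn* was steady in floxed pools (0.0610, 0.0545 and 0.0599) and lower in H3atKO pools (0.0329, 0.0297 and 0.0278), whereas that of *Ccn5* to *Dcn* went from 0.822 in floxed replicate 1 to 0.0199 in floxed replicate 3. *Fbn1* thus kept step with *Dcn* among floxed pools, and *Ccn5* did not. The log2 fold changes of *Fbn1* and *Dcn* were -1.64 and -0.67, but -0.93 and -1.87 with the GC correction described below. The fall of the *Fbn1* to *Dcn* ratio in H3atKO pools thus reversed with that correction.

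The values were also set against the GC content of the transcripts. The genes highest in floxed replicate 3 had 37.4% to 53.5% GC and those highest in floxed replicate 1 had 51.2% to 60.7%, so the groups overlapped. Over the 10 genes, Spearman's rho between GC content and log2 fold change was -0.89, and rho between GC content and the log2 ratio of floxed replicate 1 to floxed replicate 3 was 0.82. The points share the same 6 libraries, so these values describe the libraries. Over the 14922 tested genes with a known GC content, rho with the log2 fold change was -0.71. The rho between GC content and a pool's deviation from the mean ran from 0.107 to 0.800 in floxed pools and from -0.711 to -0.429 in H3atKO pools, so genotype and the GC content of the transcripts cannot be told apart. A GC correction, which takes a smooth trend with GC content out of every pool's values, also removes any effect of genotype that follows GC content.

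With the GC correction all 10 log2 fold changes stayed below 0, with a median of -1.81 beside 0.03 over all genes, but the order changed. *Tnxb* went to -2.80, *Ccn5* to -3.94 and *Eln* to -0.84. *Dcn* went the other way, from -0.67 to -1.87, and *Lum* to -0.98. *Bgn* (-1.91), *Mfap5* (-1.95), *Fn1* (-1.75), *Sparc* (-1.14) and *Fbn1* (-0.93) lay between. In that fit 5 of the 10 genes were called lower (*Tnxb*, *Ccn5*, *Dcn*, *Bgn* and *Mfap5*) beside 3.11% of all genes and 0 higher beside 5.6%, and with the replicate block in addition 8 were called (all but *Fbn1* and *Lum*) beside 9.7%.

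**Figure D3:**
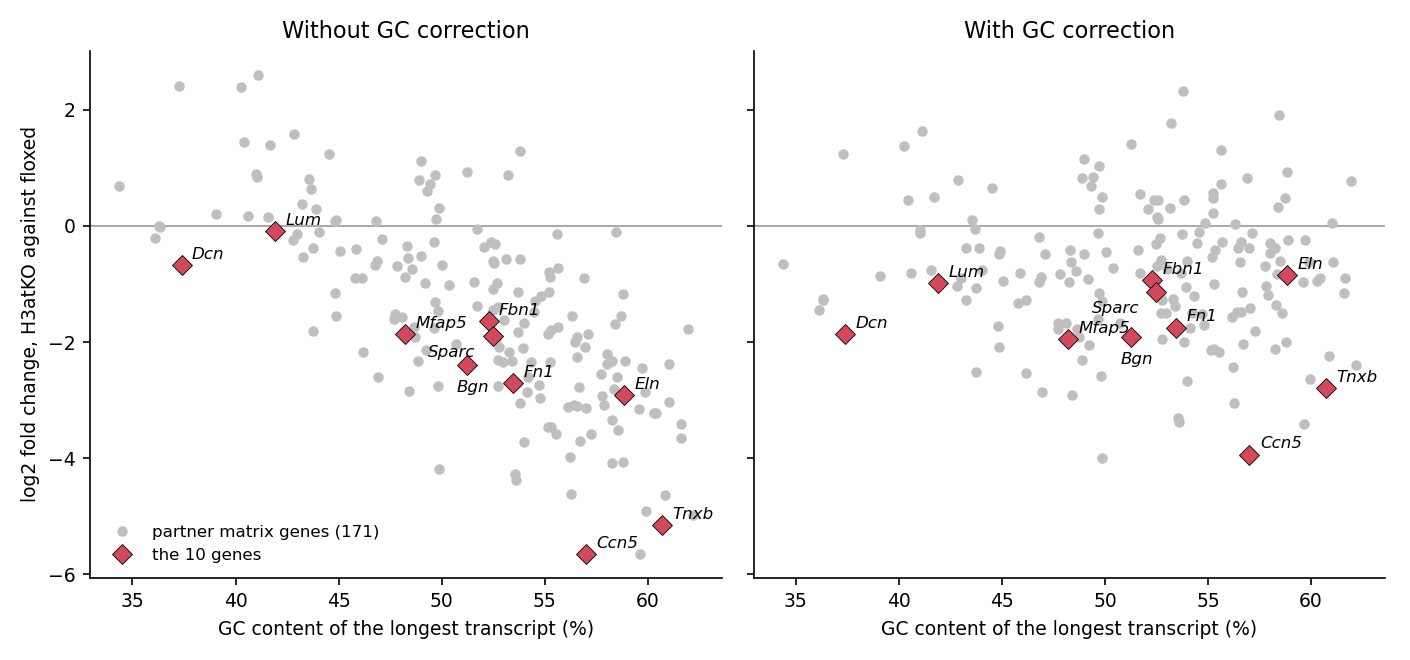
Log2 fold change of H3atKO against floxed on the vertical axis and GC content of the longest transcript in % on the horizontal axis, for the 10 genes (red diamonds) and 171 other matrix genes (grey), without and with the GC correction. Without the correction the points slope down from *Dcn* and *Lum* to *Tnxb* and *Ccn5*, and with it the 10 genes lie between -0.84 and -3.94.

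Levels were compared between genes as RPKM, which is cpm divided by the exon length in kilobases. In floxed IngWAT *Sparc* was the highest (763.8 ± 137 RPKM, SD, n = 3), followed by *Dcn* (291.7 ± 204 RPKM), and the ranges of neighbours in the order did not overlap between *Sparc* and *Dcn* or between *Dcn* and *Ccn5* (65.0 ± 60.6 RPKM). Below these, in falling order of the mean RPKM, came *Lum* (59.1), *Bgn* (52.8), *Fn1* (37.7), *Mfap5* (20.3), *Fbn1* (17.2), *Eln* (12.3) and *Tnxb* (9.44), and each overlapped the next. In H3atKO IngWAT *Sparc* (215.1 ± 94.5 RPKM) and *Dcn* (161.3 ± 42.4 RPKM) overlapped, *Lum* (40.9 RPKM) and *Bgn* (10.02 RPKM) stood apart from their neighbours, and *Mfap5*, *Fn1* and *Fbn1* (5.13, 4.96 and 4.79 RPKM) overlapped in turn. *Eln* (1.54 RPKM), *Ccn5* (0.836 RPKM) and *Tnxb* (0.256 RPKM) closed the order without overlap. The place of *Ccn5* in floxed tissue rests on a range of 10.5 to 130.2 RPKM between pools, which overlaps that of every gene after it.

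The summed expression of the 10 genes was 6124 ± 1405 cpm in floxed and 2069 ± 447 cpm in H3atKO pools (SD, n = 3). Of the summed RPKM, *Sparc* held 58.5% ± 13.3 in floxed and 47.4% ± 10.9 in H3atKO pools, and *Dcn* held 21.2% ± 12.1 and 36.9% ± 8.66 (SD, n = 3). The share of *Ccn5* was 5.04% ± 4.42 and 0.193% ± 0.0485, and that of *Lum* 4.20% ± 3.72 and 9.13% ± 1.89 (SD, n = 3). Between pools the shares of *Sparc* (43.2% to 67.2% and 37.3% to 58.9%), *Dcn* (11.6% to 34.7% and 28.0% to 45.3%) and *Lum* (1.28% to 8.39% and 7.81% to 11.3%) overlapped between genotypes, and floxed replicate 3 lay nearest to the H3atKO pools for *Dcn* and *Lum*. The share of *Ccn5* did not overlap.

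The rest of the matrix was read from 10 lists with 177 genes, none of them among the 10 above, of which 171 were tested. limma called 59 of the 171 lower (34.5%) and 2 higher, beside 7.07% and 9.42% of all genes tested, and their median log2 fold change was -1.55. The lists were made with earlier results of these data known, so these counts are a description. With the replicate block 104 were called lower and 14 higher, beside 28.7% and 24.8% of all genes. With the GC correction 24 and 3 were called, beside 3.11% and 5.6% of all genes, and the GC-corrected median was -0.78. The counts by list below are to be read beside these shares, and no list was tested against them. The count of genes called lower was 21, 0 and 93 without floxed replicates 1, 2 and 3 (90, 0 and 3828 over all genes). It was 12, 22 and 4 without H3atKO replicates 1, 2 and 3 (47, 139 and 20 over all genes). The 28 genes named by the rule below had an adjusted p of 0.00793 to 0.0494 from limma, each in 1 to 5 of the 6 fits that left out a library also under 0.05. All 28 were also called with the replicate block and 11 with the GC correction.

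Genes of elastic fibres and microfibrils fell in 7 of 16 and rose in 0 (13 and 0 with the block, 3 and 1 with the GC correction), with the lowest list median, -2.79. *Fbln2*, for fibulin-2, a linker between elastic fibres and basement membranes, had a log2 fold change of -3.14 (SE 0.40, adjusted p = 0.0112, limma). *Emilin2*, an elastin-interface glycoprotein, had -3.08 (SE 0.53, adjusted p = 0.0209, limma), and *Efemp2*, for fibulin-4, needed for elastin assembly, had -2.86 (SE 0.61, adjusted p = 0.0308, limma). After the GC correction *Efemp2* had an adjusted p under 0.05 (-1.76, adjusted p = 0.0320, limma), and *Fbln2* (-1.41) and *Emilin2* (-1.48) did not. The enzymes that cross-link elastin and collagen fell in 6 of 10 (8 with the block, 1 with the GC correction). They included *Plod3*, a lysyl hydroxylase, at -2.92 (SE 0.80, adjusted p = 0.0481, limma) and the lysyl oxidase relatives *Loxl1* (-2.38) and *Loxl3* (-2.32). With the GC correction none of the 3 was called, and the values were -1.03 for *Plod3*, 0.05 for *Loxl1* and -1.38 for *Loxl3*. *Lox* itself measured 414.8 to 561.1 cpm in floxed and 379.4 to 819.5 cpm in H3atKO pools and was not called. Its log2 fold change was 0.30, and -0.38 with the GC correction, where it was not called either.

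Among 12 other proteoglycans tested, 2 fell and 1 rose (4 and 2 with the block, 1 and 0 with the GC correction). *Podn*, for podocan, a small leucine-rich proteoglycan, measured 123.9, 99.5 and 33.0 cpm in floxed and 1.73, 4.99 and 3.29 cpm in H3atKO pools. Its pools did not overlap, and its log2 fold change was -4.62 (SE 0.77, adjusted p = 0.0206, limma) and -3.05 after the GC correction (adjusted p = 0.0231). *Agrn*, for agrin of basement membranes, fell by 2.00 on the log2 scale (SE 0.40, adjusted p = 0.0271, limma), and was at -0.38 after the GC correction (adjusted p = 0.427). *Srgn*, for serglycin, the proteoglycan of immune cell granules, rose by 1.58 (SE 0.39, adjusted p = 0.0388, limma), and was at 0.78 after the GC correction (adjusted p = 0.124). Relatives of *Dcn* and *Lum* with a low GC content, *Aspn* (0.69), *Omd* (-0.20) and *Ogn* (-0.02), were not called and overlapped between genotypes. These values are from the fit without the GC correction. With it, the median over all listed genes with a GC content under 45% went from 0.19 to -0.56. Of 17 enzymes that build glycosaminoglycan chains, 2 fell, *Chst14* (-1.56) and *Chst11* (-1.47), both sulfotransferases of chondroitin or dermatan sulfate, and 0 rose (9 and 2 with the block, 1 and 2 with the GC correction). After the GC correction *Chst14* was at 0.03, and *Chst11* at -1.29 (adjusted p = 0.0196, limma).

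Tenascins and matricellular genes fell in 8 of 19 and rose in 0 (13 and 1 with the block, 6 and 0 with the GC correction). *Thbs2*, for thrombospondin-2, an inhibitor of vessel growth, measured 193.5, 202.7 and 233.4 cpm in floxed and 25.5, 23.9 and 42.1 cpm in H3atKO pools. The floxed pools were close to each other, and H3atKO replicate 3 stood above the other H3atKO pools. *Thbs2* had the lowest adjusted p of the named genes (-2.85, SE 0.28, adjusted p = 0.00793, limma). Its log2 fold change was -2.91 after the GC correction. *Thbs1*, an activator of TGF-beta, had -4.18 (SE 0.56, adjusted p = 0.0120, limma) and -3.99 after the GC correction. *Thbs3* had -3.73 (SE 0.58, adjusted p = 0.0170, limma) and -2.67 after the GC correction, and all 3 kept their call there. *Postn*, for periostin, with a GC content of 36.3%, measured 209.3 to 1179 cpm in floxed and 286.2 to 500.8 cpm in H3atKO pools. It was not called in the fit without the GC correction.

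Other matrix glycoproteins fell in 12 of 22 and rose in 0 (19 with the block, 7 with the GC correction). They included *Ecm1* (-4.08, SE 0.49, adjusted p = 0.00996, limma), *Lamb2*, for a laminin chain of basement membranes (-4.07, adjusted p = 0.0421), and *Mfge8*, for lactadherin (-3.98, adjusted p = 0.0441). *Lamb2* kept its call after the GC correction (-2.001, adjusted p = 0.0448, limma), and *Ecm1* (-2.11) and *Mfge8* (-2.43) did not. The fibrillar and associated collagens fell in 6 of 11 and rose in 0 (9 with the block, 2 with the GC correction), with *Col5a3* (-3.65), *Col6a2* (-3.46) and *Col6a1* (-2.78) at the front. After the GC correction *Col6a2* (-2.14, adjusted p = 0.0118, limma) and *Col5a3* (-1.16, adjusted p = 0.0296, limma) kept their calls, and *Col6a1* did not (-1.14, adjusted p = 0.159, limma). Of 23 matrix receptors 4 fell and 0 rose (9 and 5 with the block, 1 and 0 with the GC correction), among them the collagen-binding and fibronectin-binding integrin chains *Itga11* (-3.59) and *Itga5* (-3.59) and the syndecan *Sdc1* (-1.87). *Itga5* kept its call after the GC correction (-1.82, adjusted p = 0.0236, limma), and *Itga11* (-2.18) and *Sdc1* (-0.53) did not.

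Of 27 matrix proteases and inhibitors 10 fell and 1 rose (15 and 2 with the block, 1 and 0 with the GC correction). *Bmp1*, the procollagen C-proteinase, had -3.70 (SE 0.51, adjusted p = 0.0126, limma), *Mmp2*, for gelatinase A, -3.47 (SE 0.46, adjusted p = 0.0120, limma) and *Htra3*, a secreted serine protease, -3.23 (SE 0.72, adjusted p = 0.0327, limma). After the GC correction they were at -2.04, -2.12 and -0.95 and none was called. The riser was *Mmp19*, named after its values were seen, at 29.4, 29.0 and 55.01 cpm in floxed and 82.5, 73.1 and 78.4 cpm in H3atKO pools (1.11, SE 0.30, adjusted p = 0.0472, limma), and after the GC correction it was at 1.15 (adjusted p = 0.0512). Of 14 TGF-beta pathway genes 2 fell and 0 rose (5 and 2 with the block, 1 and 0 with the GC correction), the ligand *Tgfb3* (-2.35, adjusted p = 0.0297, limma) and *Lrrc32*, for GARP, which displays latent TGF-beta (-2.82, adjusted p = 0.0494, limma). *Tgfb3* kept its call after the GC correction (-1.49, adjusted p = 0.0324, limma) and *Lrrc32* did not (-0.83).

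**Figure D4:**
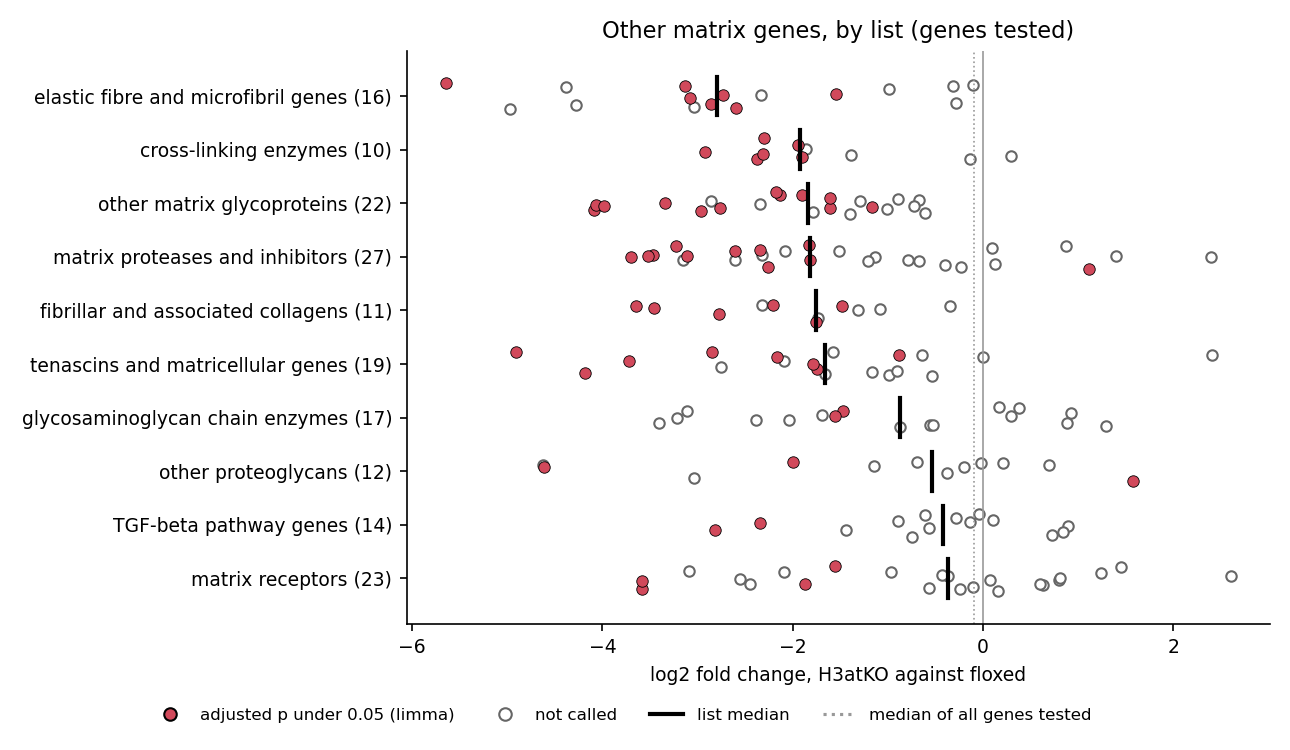
Log2 fold change of H3atKO against floxed for the 171 tested genes of the 10 lists, 1 point per gene, filled where limma called it, with a bar for the list median and a dotted line for the median of all genes tested (-0.09). List medians run from -2.79 for elastic fibre and microfibril genes to -0.37 for matrix receptors, and the filled points to the right of 0 are *Srgn* and *Mmp19*.

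The lists moved with GC content as the 10 genes did, and as all tested genes with a known GC content did (rho -0.71 with the log2 fold change). At any GC content, 7.07% of all genes tested were called lower and 9.42% higher. The shares of all genes within each GC group were not counted, so nothing about matrix genes is read from the counts by group. Of 30 tested genes with a GC content under 45%, 2 were called lower and 1 higher, with a median log2 fold change of 0.19. Of 82 genes at 45% to under 55%, 26 were called lower and 1 higher (median -1.25), and of 59 at 55% or more, 31 and 0 (median -2.78). After the GC correction the medians were -0.56, -0.83 and -0.69, and 3, 16 and 5 genes were called lower in these groups.

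*Tnxb* and *Ccn5* were also compared with 11622 other genes by Pearson's r of log2 cpm over the 6 samples. The genes most like *Tnxb* were *Fkbp10*, *Ifitm2* and *Col6a2* (r = 0.998 each), and those most like *Ccn5* were *Mst1r*, *Il34* and *Col18a1* (r = 0.999, 0.999 and 0.998). As many as 755 genes for *Tnxb* and 954 for *Ccn5* exceeded 0.95. The samples form 2 genotype groups, so that r mixes the gap between the genotypes with the variation within them.

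Markers of other cells were read beside these results. Of all genes tested, 7.07% were called lower and 9.42% higher, 28.7% and 24.8% with the block, and 3.11% and 5.6% with the GC correction. The 8 fibroblast and preadipocyte markers summed to 551.4 to 1515 cpm in floxed and 289.2 to 387.0 cpm in H3atKO pools, without overlap, and 3 of the 8 were called lower (*Pdgfrb*, *Pi16* and *Cd248*), or 5 with the block. With the GC correction 3 were called lower, *Pdgfrb* (-1.65), *Pi16* (-3.64) and *Cd34* (-1.99), and *Cd248* (-2.14) was not. *Pdgfra*, a defining receptor of these cells, measured 65.2, 81.4 and 239.3 cpm in floxed and 58.9, 55.03 and 90.8 cpm in H3atKO pools, which overlapped. The markers were split within the floxed group as the matrix genes were. *Pdgfra*, *Dpp4*, *Ly6a* and *Cd34* were highest in floxed replicate 3, as were *Fbn1*, *Dcn*, *Lum*, *Fn1* and *Mfap5*. *Pdgfrb*, *Pi16*, *Thy1* and *Cd248* were highest in floxed replicate 1, as were *Tnxb*, *Ccn5*, *Eln*, *Bgn* and *Sparc*. The markers highest in floxed replicate 3 had 42.2% to 48.1% GC, and those highest in floxed replicate 1 had 54.9% to 61.3%. The split of these markers thus ran along GC content, and its cause was not tested. The 6 macrophage markers summed to 2217 cpm in floxed replicate 3 and to 353.8 to 635.6 cpm in the other 5 pools. The 6 endothelial markers summed to 571.3 to 975.4 cpm in floxed and 377.2 to 509.1 cpm in H3atKO pools, with 3 of 6 called lower, 5 with the block and 3 with the GC correction. The 6 mural cell markers summed to 372.7 to 1422 cpm in floxed and 489.9 to 759.4 cpm in H3atKO pools. Most of the H3atKO sum was *Rgs5*, at 233.6 to 442.4 cpm in floxed and 441.3 to 702.6 cpm in H3atKO pools, which limma called higher with the block and not without it. The log2 fold change of *Rgs5* went from 0.98 to 0.02 with the GC correction. The other 5 mural markers were lower in H3atKO pools without overlap, a pattern that 28.6% of all genes tested had. *Acta2* measured 40.1 to 929.0 cpm in floxed and 7.27 to 14.9 cpm in H3atKO pools. Of the 5, 3 were called lower, 5 with the block and 2 with the GC correction. Their GC content was 49.6% to 59.6%, beside 41.1% for *Rgs5*. The 8 adipocyte markers summed to 13840 to 32350 cpm in floxed and 15730 to 27030 cpm in H3atKO pools, but *Fabp4* made up most of each sum (log2 fold change 0.05), and the median over the list was -1.53. *Lipe* (67.4, 115.2 and 27.5 cpm in H3atKO against 134.9 to 1489 cpm in floxed pools) and *Retn* did not overlap between genotypes, and *Pnpla2* (-2.06), *Lep* (-2.36), *Cidec* (-1.49) and *Plin1* (-1.22) did. None of the 8 was called by limma, and 4 were called lower with the block (*Lipe*, *Pnpla2*, *Retn* and *Cidec*). With the GC correction 0 of the 8 were called, and the list median was -0.60. *Lep* was then at -2.37, *Lipe* at -1.60, *Retn* at -1.47, *Pnpla2* at -0.31, *Cidec* at 0.14 and *Plin1* at 0.51. By qPCR in mice on a low fat diet, the study reported higher *Lipe*, *Atgl* (*Pnpla2*), *Plin*, *Fabp4* and *Adipoq* in H3atKO IngWAT. It also reported more ATGL protein by western blot. The log2 fold change of *Adipoq* here was -0.24, and -0.42 with the GC correction.

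Without the block the remaining marker lists had no member called, apart from 1 of 6 for macrophages and 2 of 5 for Schwann cells (40.0 to 92.4 cpm in floxed and 27.9 to 54.9 cpm in H3atKO pools). With the block 2 of 5 B cell markers (*Ms4a1* and *Pax5*) and 3 of 5 T cell markers (*Cd3d*, *Cd3g* and *Cd2*) were called higher, and 2 macrophage and 3 Schwann cell markers lower. Of all genes, 24.8% were called higher and 28.7% lower with the block. With the GC correction 0 of the B cell, T cell and macrophage markers were called, and 1 Schwann cell marker was called lower. B cell markers summed to 3.27 to 103.8 cpm and 3.31 to 415.3 cpm in floxed and H3atKO pools, T cell markers to 3.04 to 30.6 cpm and 6.73 to 84.3 cpm, and skeletal muscle markers to 576.8 to 2389 cpm and 2.46 to 3155 cpm. Mesothelial markers summed to 3.57 to 4.13 cpm and 3.16 to 4.36 cpm, with 1 of 4 tested, and epithelial markers to 0.841 to 3.84 cpm and 0.255 to 10.1 cpm, with 3 of 6 tested. No marker of any list was at 0 in every sample. The part of these cells in the falls of the matrix genes was not tested.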

How the data were processed

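RNA-seq libraries of IngWAT from 3 floxed and 3 H3atKO pools were grouped by genotype and replicate number from the labels. The authors trimmed reads with cutadapt 1.3, aligned them to GRCm38 with STAR 2.4.2a and counted them on Ensembl release 82 genes with HTSeq 0.6.1. They deposited raw counts for 46517 genes, neither filtered nor normalized. The 5 lines of each file that tally reads given to no gene (37.3% to 44.0% of alignments in floxed and 50.4% to 51.7% in H3atKO pools) were left out, and the counting's strand setting is not given in the sources used here. The libraries are stranded. Counts per library and the floor of 3 counts are given in the report.

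Symbols, positions, exon lengths and GC content came from GENCODE M21 (46005 identifiers matched), and promoters from RefSeq (GRCm38.p6, 4 of 10 genes matched). As in the study, genes were kept if any sample reached 1 cpm before scaling, and libraries were scaled by TMM (edgeR 4.0.16) before a fit on genotype with limma 3.58.1 (voom, moderated test, Benjamini-Hochberg adjustment over 14967 genes, called at 0.05) in R 4.3.3. Cpm and RPKM use the TMM-scaled library, and per-sample log2 cpm a prior count of 0.5. Fold changes of means are ratios of mean cpm.

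The 10 genes and all lists were chosen with earlier results of these data known, the GC correction included. Named genes are the 10, *Hdac3*, and up to 3 called genes per list with the largest change, a mean of at least 1 log2 cpm and no overlap between genotypes. *Lox*, *Aspn*, *Omd*, *Ogn*, *Postn* and *Mmp19* were named outside this rule. Alternatives were edgeR's quasi-likelihood test, DESeq2 1.42.0, library size alone, RLE factors, no filter, at least 10 counts in every sample, the replicate block, the GC correction (robust loess, span 0.3), both together, no mitochondrial genes, and each library left out. The scripts were tested on simulated counts.

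In deviations from the genotype means, same-numbered samples correlated across genes with r of 0.518, 0.386 and 0.265, and those with different numbers with -0.294 to -0.0534. The block fits take the numbers of the labels to pair the samples, though the labels do not say what they stand for. Centring on 3 samples makes negative values go with positive ones. The rho of a pool with GC content also fell in replicate order in both genotypes (0.800, 0.625 and 0.107, and -0.429, -0.500 and -0.711). The correlations therefore cannot settle whether the samples were paired, and the block is given as an alternative. No sequencing date or batch is given.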

Additional observations from a re-analysis of the deposited data

How the results depend on the processing

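Over all genes, 1058 were called lower and 1410 higher in H3atKO samples, with 7 of the 10 matrix genes lower, and of the other matrix genes 59 lower and 2 higher. edgeR called 2749 genes lower and 89 of the other matrix genes lower. DESeq2 called 3465 lower and 2935 higher, and of the other matrix genes 99 and 10. Library size alone moved the median log2 fold change of all genes from -0.09 to -0.94 and called 5667 lower and 306 higher, with 112 and 0 of the other matrix genes. Without a filter 1 of the other matrix genes was called higher, and with at least 10 counts in every sample 1864 genes were called lower. The replicate block gave 4290 and 3717, with 104 and 14 of the other matrix genes, and lost none of the calls of named genes. The GC correction gave 464 and 835, with 24 of the other matrix genes lower, and with the block in addition 9 were higher. The log2 fold change of *Loxl1* turned to 0.047 with the GC correction and 0.10 with the block in addition, and that of *Chst14* to 0.028 and 0.098.

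With 1 library left out, 0 to 3828 genes were called lower and 1 to 2729 higher, 0 to 8 of the 10 matrix genes were called lower, and of the other matrix genes 0 to 93 were lower and 0 to 9 higher. The lowest counts came without floxed replicate 2, where limma called 0 genes lower at an adjusted p under 0.05 and 2407 at an unadjusted p under 0.05. The cause of these changes was not tested. Among the 10 matrix genes, all 10 log2 fold changes were below 0 in each fit but those without floxed replicate 3 and without H3atKO replicate 1, where *Lum* was above 0. The lowest value of the 10 genes in any library, 1.26 cpm for *Ccn5*, is above the level of 3 counts, 0.190 cpm in that library.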
